A study of Mus musculus with 18 samples.

Results

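Canonical Wnt signalling was examined through 9 genes, from the co-receptors Lrp5 and Lrp6 to the transcription factors that bind beta-catenin, in hippocampal RNA of mice with and without *Ccny*, the cyclin Y gene. The genes were chosen by name: Lrp5, Lrp6, Dvl1, Gsk3b, Apc, Axin2, Ctnnb1, Lef1 and Tcf7l2, all 9 listed among the 15329 genes of the expression table and all 9 kept, since no filter on low values was used. The 18 libraries were made from hippocampi of C57BL/6J mice aged 8 to 10 weeks, with 3 in each of 6 groups, and since nothing in the labels speaks of pooling each library is called a mouse. WT_Basal and KO_Basal mice were untrained, WT_OL and KO_OL mice had completed original learning of the platform position in the Morris water maze, and WT_RL and KO_RL mice had completed original and then reversal learning, in which the platform is moved. The 3 KO groups are *Ccny* knockouts and the 3 WT groups wild type, and the labels give no other allele or agent. The values are CPM, the reads of a gene per 1000000 reads of its library, or log2(CPM + 1), and a difference was called where its adjusted p in limma was under 0.05.

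In canonical Wnt signalling, a Wnt ligand joins a Frizzled receptor and Lrp5 or Lrp6 at the cell surface. The intracellular tail of the co-receptor is then phosphorylated, draws Dishevelled and Axin to the membrane and inhibits the destruction complex of Axin, Apc and the kinase Gsk3b, which otherwise marks beta-catenin for degradation. Beta-catenin that escapes enters the nucleus and works with the TCF/LEF factors, and Axin2 is one of the genes it switches on as negative feedback. Cyclin Y, at the membrane with its kinase Cdk14, phosphorylates the tail of Lrp6, which is why these genes are of interest in *Ccny* KO mice. Phosphorylation and protein levels were not measured here, and an RNA level does not report either.

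The sites that link cyclin Y to the pathway are written in the coding sequence of Lrp6. Its tail carries repeated motifs of 3 prolines, a serine or threonine and another proline, and the serine or threonine is the residue that proline-directed kinases modify. Codons for the 7 residues that begin with each exact motif were read from GENCODE M21 transcripts on GRCm38, with the codon of the serine or threonine in capitals.
Lrp6, serine 1490, chr6:134453618-134453638, minus strand: ccaccaccaTCGcctgccaca
Lrp6, threonine 1572, chr6:134450903-134450923, minus strand: ccaccgcccACAccccgaagc
Lrp6, serine 1607, chr6:134450798-134450818, minus strand: ccaccacccTCCccctgcacg
Lrp5, serine 1502, chr19:3586451-3586471, minus strand: ccacccccgTCCccggccaca
Lrp5, threonine 1577, chr19:3585135-3585155, minus strand: cccccgcccACCccccacagc
Lrp5, serine 1608, chr19:3585042-3585062, minus strand: cccccaccgTCCccctgcacg
Each stretch lies within 1 coding exon. Between Lrp6 and Lrp5, 17, 17 and 19 of the 21 bases were identical in the 3 motifs, and the proteins they belong to have 1613 and 1614 residues. At the other end of the pathway, the stretch of Ctnnb1 that the destruction complex acts on holds serines 33 and 37, threonine 41 and serine 45, whose codons are in capitals here.
Ctnnb1, residues 32 to 45, chr9:120950602-120950643, plus strand: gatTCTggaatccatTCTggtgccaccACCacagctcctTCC
On GRCm38 the whole genes lie at chr6:134446476-134566965 (Lrp6), chr19:3584828-3686564 (Lrp5) and chr9:120929216-120960507 (Ctnnb1). Those of the cytoplasm lie at chr4:155847402-155859303 (Dvl1), chr16:38089001-38246084 (Gsk3b) and chr11:108920349-108950783 (Axin2). The TCF/LEF factors lie at chr3:131110471-131224356 (Lef1) and chr19:55741820-55933654 (Tcf7l2).

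Over all 15329 genes, libraries held from 29248557 to 37915576 reads. Ccny itself was lower in KO than in WT mice in all 3 states. In WT_Basal mice it was at 158, 150 and 158 CPM, and in KO_Basal mice at 95.8, 90.5 and 89.6 CPM, so that KO minus WT was -0.75 on the log2 scale (95% interval -0.97 to -0.52, limma adjusted p = 0.0121). After original learning the difference was -0.75 (adjusted p = 0.018) and after reversal learning -0.66 (adjusted p = 0.0821). Every KO library was below every WT library, but KO libraries kept 74.0 to 95.8 CPM, and where in the gene these reads lie was not analysed here. Cdk14, its partner kinase, differed between the genotypes by -0.01 on the log2 scale over the 3 states (95% interval -0.13 to 0.12). Of the 12 genes of the list of Lrp6 kinases and cyclin Y partners, Ccny alone was called between the genotypes. The dissection was checked against hippocampal neuron markers: Prox1 of dentate granule cells was at 34.4 to 90.5 CPM and Neurod6 of pyramidal neurons at 138 to 287 CPM. Markers of neighbouring tissue varied between libraries. Those of choroid plexus summed to between 220 CPM in WT_RL mouse 1 and 13033 CPM in WT_RL mouse 3. The next highest sums were 7872 CPM in KO_RL mouse 1 and 7125 CPM in KO_OL mouse 3, and WT_RL mouse 2 was at 1416 CPM. Pou4f1 or Gbx2, markers of habenular or thalamic neurons, were above 1.5 CPM in 3 libraries, WT_RL mice 2 and 3 and KO_OL mouse 3. Their values, and those of WT_OL mouse 1, are given beside Tcf7l2. Libraries also differed in how values moved with the GC content of a gene. The slope per 10 percentage points of GC was -0.18 to -0.11 (log2) in the 6 untrained libraries and -0.01 to 0.20 in the 12 trained ones, with no overlap, so training and this slope cannot be told apart by design. WT_OL mouse 2 had the highest GC slope, 0.20, and the lowest slope per doubling of transcript length, -0.21.

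Per kilobase of the longest annotated transcript, Ctnnb1 had the highest level of the 9 genes, with a median of 166 CPM per kb (range 150 to 179). Apc followed at 32.8, Gsk3b at 23.8 and Dvl1 at 18.6 CPM per kb, and the ranges of neighbours in this order overlapped. Lrp6 was at 7.20 and Axin2 at 5.47 CPM per kb, again overlapping, and both were below every library of Dvl1. Lrp5 at 1.75, Lef1 at 1.28 and Tcf7l2 at 1.10 CPM per kb came last, below every library of Axin2 except where Tcf7l2 reached 5.92 in a single mouse, and their ranges overlapped one another. Lrp6 was therefore the more abundant co-receptor in every library: its lowest value, 4.86 CPM per kb, exceeded the highest of Lrp5, 2.52. The lowest member value rested on 3.10 CPM for Lef1 and 2.79 CPM for Tcf7l2.

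**Figure D1:**
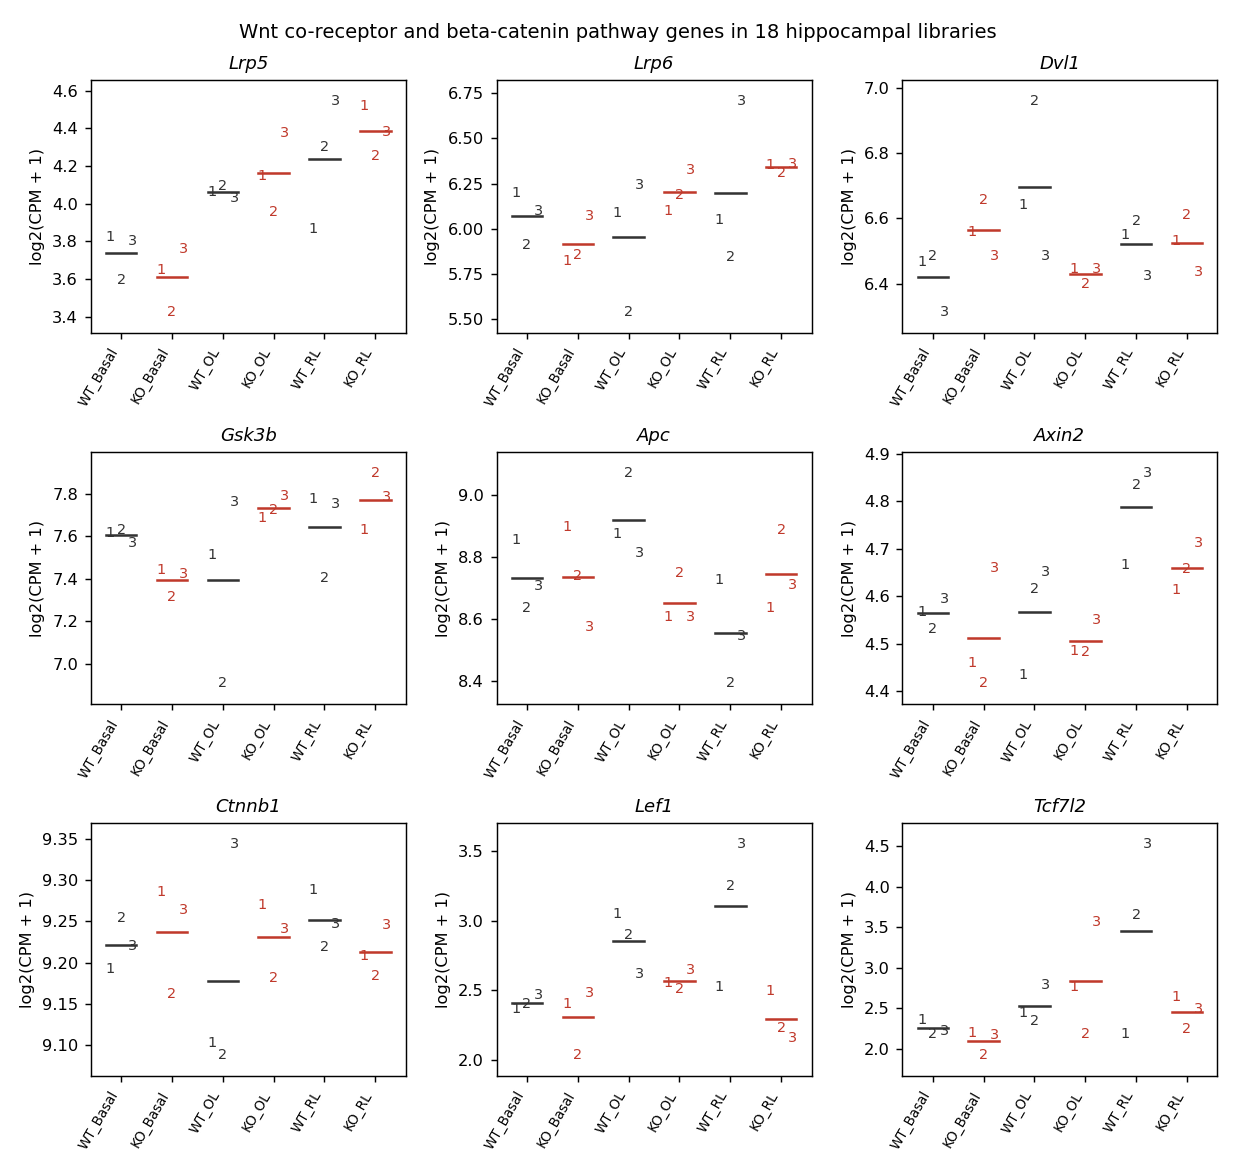
Deposited log2(CPM + 1) of the 9 genes (vertical axes, each with its own range) in the 6 groups (horizontal axes); the digits are mouse numbers within a group, the lines group means, WT dark and KO red. Lrp5 lies higher in all trained than in all untrained mice, Ctnnb1 spans a narrow range, and Tcf7l2 is raised in WT_RL mice 2 and 3 and KO_OL mouse 3.

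The first question was whether loss of Ccny changed RNA of the pathway. In the reported fit, no difference between the genotypes was called for any of the 9 genes. Alternatives that did call members are given below and in the last section. Without training, 0 of 9 were called against 0.0196% of all genes, after original learning 0 of 9 against 0.0652%, and after reversal learning 0 of 9 against 0%. Over the mean of the 3 states, 0 of 9 were called against 0.0326% of all genes. At an unadjusted p under 0.05, 0, 3, 2 and 1 of the 9 genes passed in these 4 comparisons, against 3.999%, 18.03%, 4.93% and 8.36% of all genes. After reversal learning these were 756 genes, and limma on the recovered reads (voom) also called 0 genes. With 3 mice against 3, an exact permutation test cannot go below 0.1, so the fit across all genes was used.

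Lrp6, the cyclin Y substrate, was at 72.5, 59.05 and 67.5 CPM in WT_Basal mice and 55.4, 56.9 and 66.3 CPM in KO_Basal mice. After original learning it was at 66.9, 45.5 and 74.7 CPM in WT and 67.4, 71.8 and 79.3 CPM in KO mice. After reversal learning it was at 65.1, 56.3 and 104 CPM in WT and 80.7, 78.4 and 80.9 CPM in KO mice. WT and KO mice overlapped in each state, and the spread was wide in WT_OL and WT_RL and narrow in KO_RL. The KO minus WT difference was -0.15 (95% interval -0.55 to 0.24) without training, 0.25 (-0.15 to 0.64) after original learning and 0.14 (-0.25 to 0.53) after reversal learning on the log2 scale. Over the 3 states it was 0.08 (-0.15 to 0.31, adjusted p = 0.845). Lrp6 varied within groups more than 95.4% of 2381 genes of similar level. WT_OL mouse 2, the library with the extreme GC and length slopes, was the lowest of all 18 for Lrp6 and for Gsk3b, and the highest for Dvl1 and Apc. Apc is alike to Lrp6 and Gsk3b in GC and length. GC content of these genes exceeds that of 21.7% to 30.2% of genes, and length that of 94.9% to 99.1%. The part of the slopes in these values was not tested. After original learning, the difference of Lrp6 was 0.04 without WT_OL mouse 2 and 0.09 with GC and length corrected. After reversal learning it was -0.04 without WT_RL mouse 2 and 0.40 without WT_RL mouse 3.

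**Figure D2:**
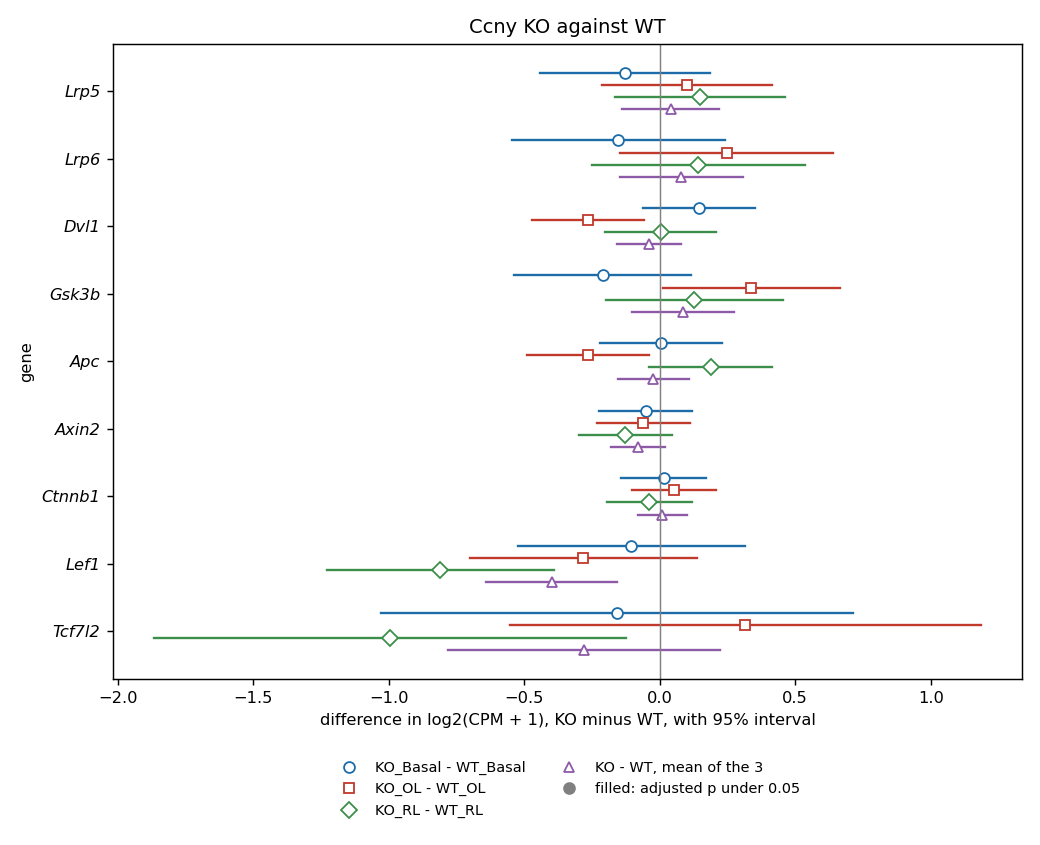
Difference in log2(CPM + 1) between *Ccny* KO and WT mice (horizontal axis, KO minus WT) for each gene (vertical axis) in 3 training states and over their mean, with 95% intervals from limma over 3 mice a group. No point is filled, since no adjusted p was under 0.05, and the intervals of Ctnnb1 and Axin2 are the narrowest.

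Lrp5 differed by 0.04 between the genotypes over the 3 states (95% interval -0.14 to 0.22). The narrowest interval was that of Ctnnb1, which encodes beta-catenin: KO minus WT was 0.01 (-0.08 to 0.10). Ctnnb1 ranged from 543 to 649 CPM over all 18 mice, a ratio of 1.19, and its spread within groups was larger than that of 7.54% of 199 genes of similar level. For Axin2, the feedback target often read as a sign of pathway activity, KO minus WT was -0.08 (-0.18 to 0.02, adjusted p = 0.67).

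Within the destruction complex and its regulator, 2 of the 9 genes did not overlap between untrained genotypes, against 14.7% of all genes. Gsk3b, the kinase that phosphorylates beta-catenin and also Lrp6, was at 195, 197 and 189 CPM in WT_Basal and 173, 158 and 171 CPM in KO_Basal mice, lower in all 3 KO mice by -0.21 (adjusted p = 0.994). Dvl1, a Dishevelled scaffold, was higher in all 3 KO_Basal mice by 0.14 (adjusted p = 0.994). After original learning, Dvl1 (-0.26, adjusted p = 0.201) and Apc, the scaffold of the destruction complex (-0.27, adjusted p = 0.225), were lower in all 3 KO than in all 3 WT mice, 2 of 9 against 16.5% of all genes. Neither difference passed the test, and for each gene the highest WT value was that of WT_OL mouse 2. Over 12 alternatives the difference of Apc lay between -0.44 and -0.21, and it was called in 1 of them. Gsk3b differed by 0.34 after original learning (adjusted p = 0.261), and by 0.10 without WT_OL mouse 2. Without WT_OL mouse 3, whose values of both genes lay closest to those of KO_OL mice, Gsk3b (0.52, adjusted p = 0.0236) and Dvl1 (-0.37, adjusted p = 0.0175) were called.

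Lef1, a TCF/LEF factor, gave the lowest unadjusted p of the 9 genes between the genotypes. After reversal learning it was at 4.75, 8.51 and 10.7 CPM in WT and 4.64, 3.70 and 3.47 CPM in KO mice. All 3 KO mice were below all 3 WT mice, though KO_RL mouse 1 and WT_RL mouse 1 were close, and 1 of 9 genes without overlap compares with 8.18% of all genes. The difference was -0.81 (95% interval -1.23 to -0.39) with an adjusted p of 0.555 in limma. Without WT_RL mouse 1 it was -1.10 (adjusted p = 0.00203), and without the 3 libraries with Pou4f1 or Gbx2 above 1.5 CPM it was -0.23 (adjusted p = 1). Over the 3 states Lef1 differed by -0.40 (adjusted p = 0.364), and by -0.50 without WT_RL mouse 1 (adjusted p = 0.0165). Tcf7l2, the other TCF/LEF factor, differed by -0.99 after reversal learning (adjusted p = 0.933), by -1.63 without WT_RL mouse 1 (adjusted p = 0.0251), and by 0.28 without those 3 libraries. Both of these values without the 3 libraries rest on WT_RL mouse 1 alone.

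The next question was how the pathway differed after training. Lrp5 was the one member that rose in more than 1 comparison with untrained mice. It was at 13.2, 11.1 and 12.96 CPM in WT_Basal, 15.7, 16.0 and 15.4 CPM in WT_OL and 13.6, 18.7 and 22.4 CPM in WT_RL mice. In KO mice it was at 11.5, 9.75 and 12.5 CPM without training, 16.8, 14.5 and 19.8 CPM after original learning and 21.9, 18.1 and 19.8 CPM after reversal learning. All 12 trained mice were above all 6 untrained mice.

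In KO mice Lrp5 rose by 0.55 after original learning (95% interval 0.24 to 0.86, limma adjusted p = 0.0135) and by 0.77 after reversal learning (0.46 to 1.09, adjusted p = 0.00165). In WT mice it rose by 0.50 after reversal learning (0.18 to 0.81, adjusted p = 0.0317), and the difference after original learning was 0.32 (0.01 to 0.64, adjusted p = 0.179). The increases did not differ between the genotypes at an adjusted p under 0.05, with a KO minus WT difference in change of 0.23 (-0.21 to 0.67) for original learning and 0.28 (-0.17 to 0.72) for original and reversal learning. The comparisons with KO_Basal share those 3 mice, as do those with WT_Basal. Lrp5 has 54.7% GC, above 75.7% of genes, and a long transcript, and trained libraries had higher GC slopes. With GC and length corrected in each library, its 3 calls were lost: the changes were 0.23 (adjusted p = 0.322), 0.37 (adjusted p = 0.117) and 0.26 (adjusted p = 0.31) for KO_OL, KO_RL and WT_RL mice. With GC alone corrected, the changes were 0.43 (adjusted p = 0.046), 0.66 (adjusted p = 0.00562) and 0.39 (adjusted p = 0.103), so the call in WT_RL mice was lost.
Without the 3 libraries with Pou4f1 or Gbx2 above 1.5 CPM, the change was 0.44 (adjusted p = 0.0222) in KO_OL and 0.12 (adjusted p = 0.67) in WT_RL mice, the latter from WT_RL mouse 1 alone. Without KO_Basal mouse 2 or KO_OL mouse 3 the call in KO_OL mice was lost, with adjusted p of 0.0668 and 0.0743. The call in WT_RL mice was lost without any 1 of the 3 WT_Basal mice or without WT_RL mouse 2 or 3, with values from 0.34 to 0.54, while that in KO_RL mice held in all 18 fits without 1 library.

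In these comparisons the share of members called was read against that of all genes. In KO_OL mice 1 of 9 was called against 23.5% of all genes, in KO_RL mice 1 of 9 against 23.6%, in WT_RL mice 2 of 9 against 15.7% and in WT_OL mice 0 of 9 against 9.5%. Groups did not overlap for 3 of 9 members in WT_OL mice, against 28.3% of all genes, for 5 of 9 in KO_OL mice against 48.8%, for 3 of 9 in WT_RL mice against 34.3% and for 4 of 9 in KO_RL mice against 45.3%. The shares without overlap were near those of all genes. Unadjusted p-values under 0.05 were found for 3, 2, 4 and 3 members in WT_OL, KO_OL, WT_RL and KO_RL mice, against 25.9%, 36.6%, 30.3% and 36.6% of all genes. The plot of trained against untrained mice shows all 9 genes.

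**Figure D3:**
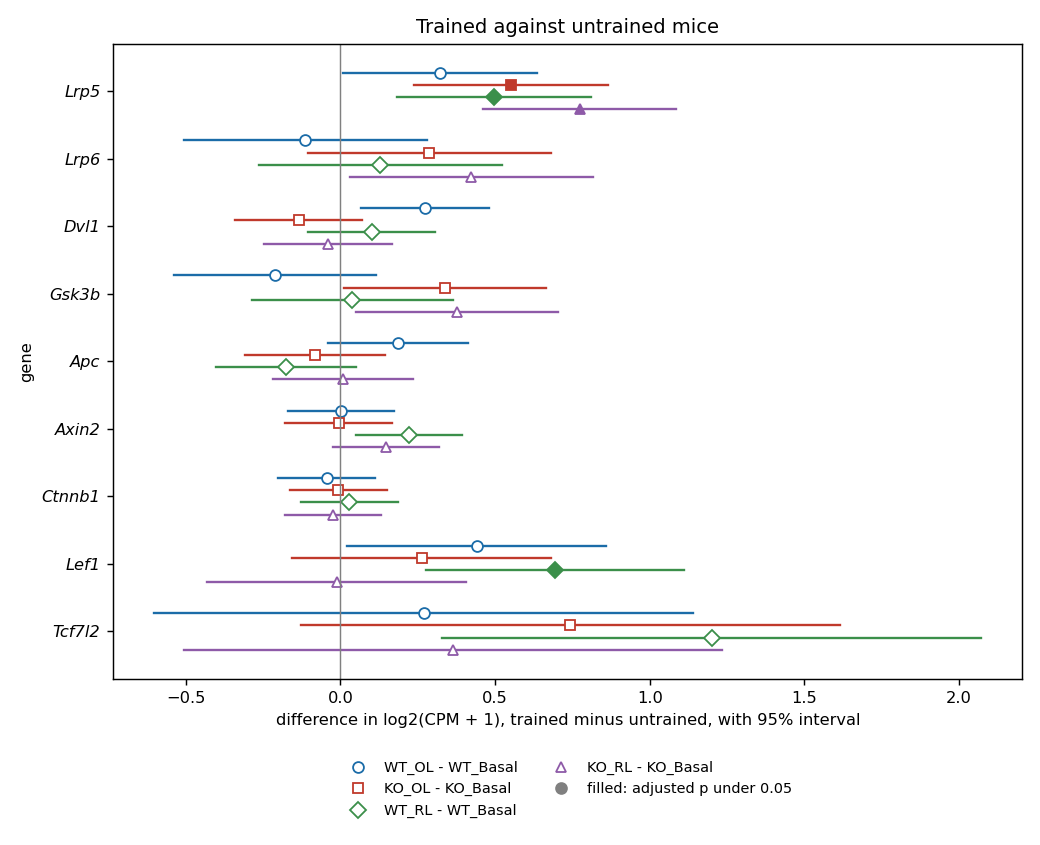
Difference in log2(CPM + 1) between trained and untrained mice of the same genotype (horizontal axis, trained minus untrained) for each gene (vertical axis), with 95% intervals from limma over 3 mice a group. Filled points have an adjusted p under 0.05: Lrp5 in KO_OL, KO_RL and WT_RL mice and Lef1 in WT_RL mice.

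Lrp6 was higher in all 3 KO_OL and all 3 KO_RL mice than in all 3 KO_Basal mice, by 0.29 (adjusted p = 0.278) and 0.42 (adjusted p = 0.108), which did not pass the test. In WT mice the corresponding differences were -0.11 and 0.13. Gsk3b was higher in all 3 mice of both trained KO groups than in KO_Basal mice, by 0.34 (adjusted p = 0.123) and 0.38 (adjusted p = 0.0856). In the fit without WT_OL mouse 2, both changes of Gsk3b were called (adjusted p = 0.0146 and 0.00773), and without WT_OL mouse 3 the latter (adjusted p = 0.0364). The change of Lrp6 in KO_RL mice was called in the fit without WT_RL mouse 3 (adjusted p = 0.0357). Dvl1 was at 87.4, 88.5 and 78.6 CPM in WT_Basal and 98.8, 123.5 and 88.6 CPM in WT_OL mice, a difference of 0.27 (adjusted p = 0.0867), which was called without WT_OL mouse 3 (0.38, adjusted p = 0.0136). In KO mice it was at 93.1, 99.8 and 88.6 CPM without training and 86.2, 83.4 and 86.2 CPM after original learning, a difference of -0.14 (adjusted p = 0.333). With GC and length corrected, Dvl1, whose GC content exceeds that of 93.8% of genes, was called lower in KO_OL (-0.40, adjusted p = 0.018) and KO_RL mice (-0.33, adjusted p = 0.0475).

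Lef1 rose in WT_RL mice, by 0.69 against WT_Basal (95% interval 0.28 to 1.11, adjusted p = 0.0263). The call was lost without any 1 of the 3 WT_Basal mice or without WT_RL mouse 2 or 3, with values from 0.47 to 0.72. It was at 4.16, 4.30 and 4.52 CPM in WT_Basal and 7.27, 6.44 and 5.14 CPM in WT_OL mice, a difference of 0.44 (adjusted p = 0.169). In KO_RL mice the difference from KO_Basal was -0.01 (-0.43 to 0.41), and KO minus WT for the change itself was -0.71 (-1.30 to -0.11, adjusted p = 0.909). Tcf7l2 was at 3.54, 11.6 and 21.98 CPM in WT_RL mice against 4.13, 3.53 and 3.66 CPM in WT_Basal mice, so 1 of 3 trained mice lay within the untrained range. The difference was 1.20 (0.33 to 2.07, adjusted p = 0.0584), and it was called without WT_RL mouse 1 (1.84, adjusted p = 0.00154) and in the fit without KO_OL mouse 3 (adjusted p = 0.0471). KO_OL mouse 3 was at 10.9 CPM, above 5.77 and 3.55 CPM in the other KO_OL mice. Within groups Tcf7l2 varied more than 98.2% of 1500 genes of similar level.

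Some markers of neurons next to the hippocampus were high in the libraries with high Tcf7l2, and others were not. Tcf7l2 is a known marker of the thalamus and habenula, and Lef1 is also used in thalamic neurons. Pou4f1, a factor of habenular neurons, was at 2.23 and 4.39 CPM in WT_RL mice 2 and 3, at 0 in WT_RL mouse 1 and at most 1.01 CPM in the 15 libraries other than these 2 and KO_OL mouse 3. The nicotinic receptor subunit Chrna3 was at 2.57 and 5.06 CPM in WT_RL mice 2 and 3, and the vesicular glutamate transporter Slc17a6 at 61.0 and 93.9 CPM, against at most 1.81 and 59.7 CPM in those 15 libraries. The 59.7 CPM was that of KO_Basal mouse 1, where Tcf7l2 was at 3.59 and Lef1 at 4.29 CPM. KO_OL mouse 3 held other thalamic markers, with Gbx2 at 1.91 CPM, Zic1 at 67.2 CPM and Prkcd at 66.1 CPM, but Pou4f1 at 0 and Chrna3 at 0.56 CPM. In WT_RL mouse 2, Zic1 (9.81 CPM) and Prkcd (20.9 CPM) lay within the range of the 15 libraries. So did Gbx2 (0.15 CPM) in WT_RL mouse 3. Of the 21 markers of thalamic and habenular neurons, 11 and 14 were above all 6 untrained libraries in WT_RL mice 2 and 3, and 8 in KO_OL mouse 3. WT_OL mouse 1 had 11 such markers too, as many as WT_RL mouse 2, with the highest Pou4f1 (1.01 CPM), Chrna3 (1.81 CPM) and Lef1 (7.27 CPM) of the other 15 libraries, though its Tcf7l2 was at 4.42 CPM. It was kept in the fits without the 3 libraries. The remaining trained libraries had from 2 such markers (WT_RL mouse 1, KO_RL mouse 2) to 6 (KO_OL mouse 1, KO_RL mouse 1). The share of all genes above the 6 untrained libraries was not counted, so these numbers have no background to be read against. Over the whole list the sum was 756 to 816 CPM in WT_Basal, 789 to 824 in KO_Basal, 823 to 878 in WT_OL, 835 to 1003 in KO_OL, 876 to 950 in WT_RL and 853 to 875 in KO_RL mice. Of 16 choroid plexus markers, 16 were above all 6 untrained libraries in WT_RL mouse 3 and 0 in WT_RL mouse 2. The number was 10 in KO_OL mouse 3 and 13 in KO_RL mouse 1. Without the 3 libraries, Lef1 differed by 0.11 (adjusted p = 0.783) and Tcf7l2 by -0.07 (adjusted p = 0.89) between WT_RL and WT_Basal mice. That comparison then rests on WT_RL mouse 1 alone, assumed to vary like the other groups. In such bulk samples, more cells of a type and more RNA per cell cannot be told apart.

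**Figure D4:**
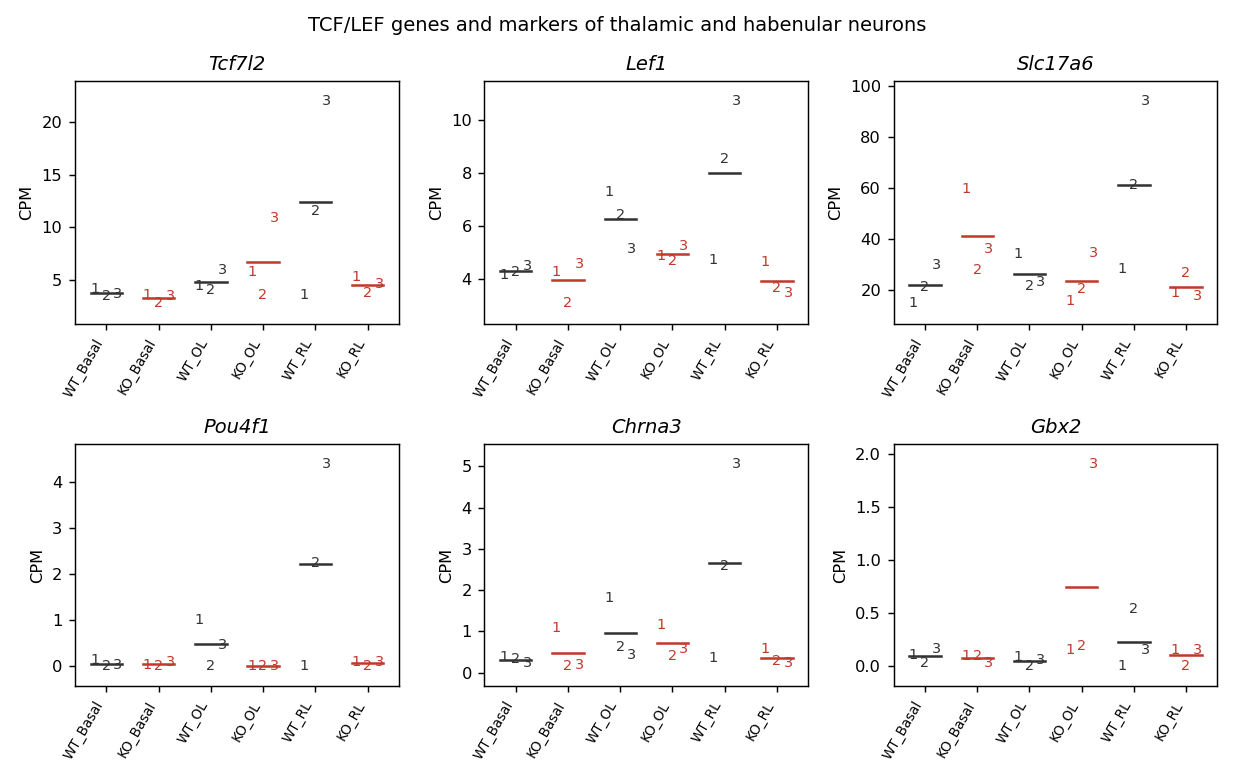
CPM (vertical axes) of Tcf7l2, Lef1 and 4 markers of thalamic and habenular neurons in the 6 groups (horizontal axes); the digits are mouse numbers, the lines group means, WT dark and KO red. Slc17a6, Pou4f1 and Chrna3 are highest in WT_RL mouse 3, followed by mouse 2, as Tcf7l2 and Lef1 are, and Gbx2 is highest in KO_OL mouse 3.

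Reversal learning was also set against original learning. No member was called, in WT (0 of 9 against 0.261% of all genes) or KO mice (0 of 9 against 0.0196%), with 3 and 0 members at an unadjusted p under 0.05, against 16.4% and 4.81% of all genes. In each genotype 2 of 9 members did not overlap, against 11.1% and 13.2% of all genes. Axin2 was the member higher in all RL than in all OL mice in both genotypes. It was at 20.6, 23.5 and 24.1 CPM in WT_OL and 24.4, 27.5 and 28.0 CPM in WT_RL mice, a difference of 0.22 (95% interval 0.05 to 0.39, adjusted p = 0.225). Without the 3 libraries with Pou4f1 or Gbx2 above 1.5 CPM this was 0.10, from WT_RL mouse 1 alone. Axin2 was also higher in WT_RL than in WT_Basal mice, by 0.22 (limma adjusted p = 0.0729). That difference was called without WT_RL mouse 1 (0.28, adjusted p = 0.0463). In KO mice it was at 21.4, 21.4 and 22.4 CPM after original and 23.5, 24.2 and 25.2 CPM after reversal learning, a difference of 0.15 (-0.02 to 0.33, adjusted p = 1). Apc was lower in all 3 WT_RL than in all 3 WT_OL mice, at 423, 335 and 373 against 468, 537 and 449 CPM. The difference of Apc was -0.36 (adjusted p = 0.154), and without WT_OL mouse 3 it was called (-0.42, adjusted p = 0.0312). Lef1 was lower in all 3 KO_RL than in all 3 KO_OL mice, by -0.27 (adjusted p = 1).

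Whether the genotypes differed in how the genes changed was tested directly. None of the 9 genes was called for the change with original learning, from original to reversal learning, or from untrained to reversal learning, and neither was any other gene (0%, 0% and 0% of all genes). In limma 2, 2 and 1 of the 9 had an unadjusted p under 0.05, against 1908, 1224 and 765 of all genes. The lowest p were those of Dvl1 in original learning, with a KO minus WT difference in change of -0.41 (95% interval -0.70 to -0.12, adjusted p = 0.388), and of Apc from original to reversal learning, 0.45 (0.13 to 0.77, adjusted p = 0.581). Without WT_OL mouse 3, the differences in the change with original learning were called for Dvl1 (-0.51, adjusted p = 0.0377) and Gsk3b (0.73, adjusted p = 0.04).

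The other genes of the pathway were taken from 8 lists of ligands, receptors, inhibitors, signalling components and targets, 131 genes of which 125 were in the table. Between the genotypes, Ccny was the single gene of the 125 called. After training, 9 genes rose and 2 fell in WT_OL mice, 18 rose and 8 fell in KO_OL, 15 rose and 3 fell in WT_RL and 18 rose and 9 fell in KO_RL mice. These 11, 26, 18 and 27 of the 125 genes compare with 9.5%, 23.5%, 15.7% and 23.6% of all genes called, and the shares of the 125 were slightly lower. The median change over the 125 was 0.08, 0.09, 0.10 and 0.08, against -0.0003, -0.0073, 0.0015 and -0.0034 over all genes tested. With GC and length corrected, 4, 10, 5 and 8 of these calls remained, and the balance moved to 4 higher and 0 lower in WT_OL, 9 and 7 in KO_OL, 5 and 4 in WT_RL and 6 and 10 in KO_RL mice, so the excess of higher over lower genes depended on this scaling. Calls remaining without the 3 libraries with Pou4f1 or Gbx2 above 1.5 CPM were 8, 14, 1 and 23, the value for WT_RL with 1 mouse left in WT_RL. No pathway gene was called between reversal and original learning in either genotype.

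Of all 15329 genes, 595, 1714, 1270 and 1776 rose in WT_OL, KO_OL, WT_RL and KO_RL mice, and 862, 1886, 1137 and 1836 fell. In the list of beta-catenin, TCF/LEF factors and cofactors, 3, 6, 4 and 6 of 21 genes rose in these groups and 0 fell. With GC and length corrected, Crebbp and Tle3 of these genes kept their calls in all 4 comparisons and Lef1 in WT_RL mice, and the other calls were lost. With GC alone corrected the same calls held, except that of Tle3 in WT_OL mice. Crebbp, an acetyltransferase that coactivates beta-catenin, rose by 0.64, 1.06, 0.94 and 1.19 (adjusted p 0.00523, 4.79e-05, 0.000281 and 2.34e-05). The corepressor Tle3, which binds TCF/LEF factors in the absence of beta-catenin, rose by 0.36, 0.86, 0.46 and 0.78. In the list of Dishevelled and destruction complex, 2, 6, 4 and 6 of 21 rose, and 1 fell in each KO group, against the all-gene counts above. Dvl3, a paralog of Dvl1, rose by 0.39, 0.46, 0.37 and 0.47. Apc2, the paralog of Apc in the nervous system, rose by 0.29 in WT_OL and 0.27 in WT_RL mice and was also called higher in both KO groups, and all 4 of its calls were lost with GC alone corrected.

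Among 24 receptors and co-receptors, 2, 4, 3 and 4 rose and 1, 2, 1 and 1 fell. Over all genes, 9.5%, 23.5%, 15.7% and 23.6% were called in either direction, near the shares of this list. Lrp4, a relative of Lrp5 and Lrp6, rose by 0.52 in WT_OL, 0.54 in WT_RL and 0.61 in KO_RL mice, and was also called higher in KO_OL mice. All 4 of its calls held with GC alone corrected and were lost with GC and length corrected. Fzd1, a Frizzled receptor, rose by 0.63 and 0.58 in the WT groups. Tspan12, a membrane protein that aids Norrin signalling through Fzd4 and Lrp5, fell by 0.28 in WT_OL, 0.55 in KO_OL and 0.60 in KO_RL mice, and was also called lower in WT_RL mice. Ndp, which encodes Norrin, fell by 0.40 in KO_OL, 0.43 in WT_RL and 0.58 in KO_RL mice. It is 1 of 6 genes of ligand secretion and agonists, of which Rspo3, an agonist that spares Frizzled from removal, fell in KO_RL mice by 0.49. Among 16 Wnt ligands, Wnt9a fell by 0.62 in KO_OL, 0.68 in WT_RL and 0.91 in KO_RL mice, and Wnt10a rose by 0.56 and 0.52 in the WT groups.

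Of 17 secreted and surface inhibitors, 1, 1, 2 and 1 rose and 0, 2, 0 and 3 fell. Over all genes, 9.5%, 23.5%, 15.7% and 23.6% were called in either direction. Sostdc1, an inhibitor of Lrp5 and Lrp6, rose by 2.06 in KO_OL mice (adjusted p = 0.0328). It is also a choroid plexus gene, and the 16 choroid plexus markers, which include it, all rose in KO_OL mice, and 13 of them in KO_RL mice. The comparison group was low in these markers. Their sum was 231 to 1163 CPM in KO_Basal, below the 1483 to 6619 CPM of WT_Basal mice. In KO_OL mice it was 3725 to 7125 CPM and in KO_RL mice 2162 to 7872 CPM. Against the same shares of all genes, 0, 1, 1 and 2 of 16 Wnt target genes rose and 0, 2, 0 and 1 fell. They were Znrf3, a ubiquitin ligase that removes Frizzled, up by 0.48 and 0.45 in KO_OL and KO_RL mice, Nkd2, up by 0.70 in KO_RL mice, Lef1 in WT_RL mice, Neurod1, down by 0.56 and 0.57, and Notum, down by 0.40 in KO_OL mice. With GC and length corrected, the calls of Wnt10a, Rspo3 and Neurod1 were lost, Tspan12 and Ndp kept theirs in KO_RL mice only, Dvl3 in both KO groups and Znrf3 in KO_OL mice, and Fzd1, Wnt9a, Sostdc1, Nkd2 and Notum kept all of theirs. With GC alone corrected these calls also held, except that of Fzd1 in WT_OL mice. Tspan12 then also kept its call in KO_OL mice and Znrf3 in KO_RL mice. In the reported fit Axin2 was not called in any comparison.

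**Figure D5:**
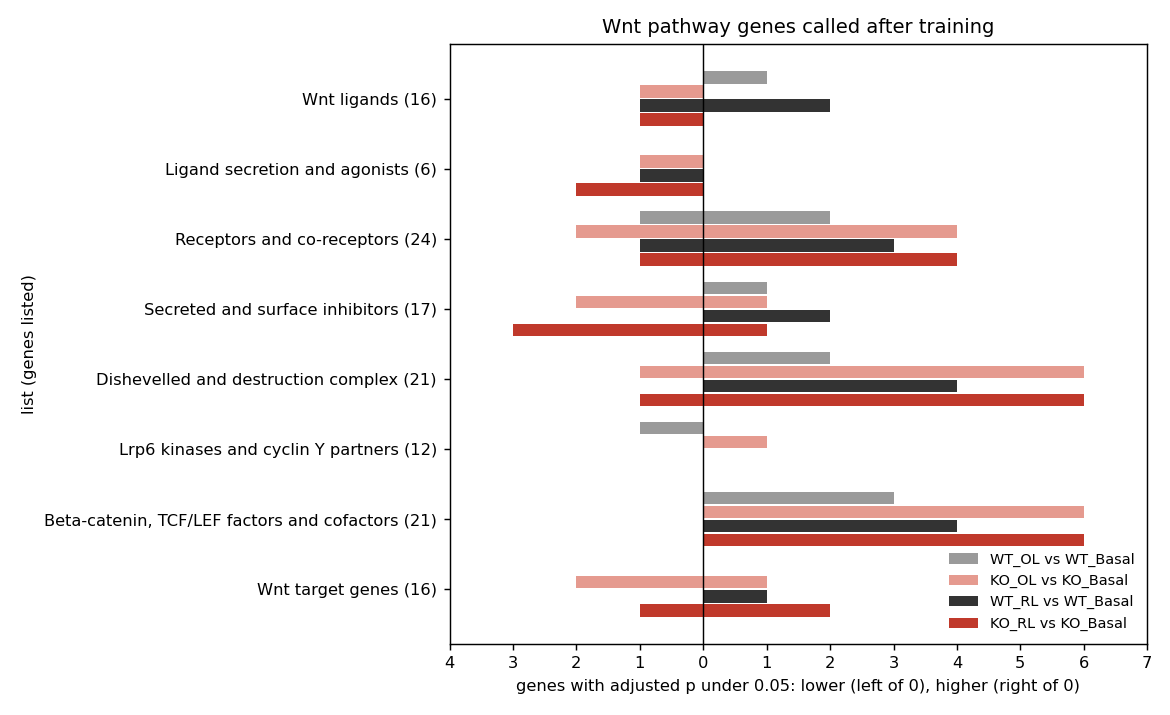
Number of genes with an adjusted p under 0.05 (horizontal axis, higher to the right and lower to the left of 0) in 8 lists of Wnt pathway genes (vertical axis, number listed in brackets) for 4 comparisons of trained with untrained mice. The list of beta-catenin, TCF/LEF factors and cofactors holds 3 to 6 higher and 0 lower genes.

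Summed levels of some cell type markers are given for these comparisons. The 10 astrocyte markers summed to 5452 to 5974 CPM in the 6 untrained and 6223 to 8378 CPM in the 12 trained libraries, with no overlap. In WT_OL, KO_OL, WT_RL and KO_RL mice, 3, 1, 2 and 1 of them rose and 0, 1, 0 and 2 fell. Over all genes, 9.5%, 23.5%, 15.7% and 23.6% were called in either direction. Endothelial markers summed to 476 to 520 and 442 to 627 CPM, hippocampal principal neuron markers to 958 to 1295 and 938 to 1454 CPM, and microglial markers to 510 to 615 and 439 to 637 CPM. For these lists the ranges over all untrained and all trained libraries overlapped, but single groups could lie apart. Endothelial sums were 538 to 625 CPM in WT_OL mice, above all 6 untrained libraries. Microglial sums were 484 to 509 CPM in KO_OL mice, below all 6. The other trained groups overlapped the untrained range in both lists. The part of these cell types in the changes of the pathway genes was not tested.

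Genes whose log2 values followed a member most closely over the 18 libraries were found among genes with a mean log2 value of at least 3. For Lrp6 they were Slc23a2, Atp11a, Fat1, Syne2 and Synm, with Pearson r from 0.93 to 0.94, and from 0.83 to 0.91 without the 2 libraries farthest from the median. For Axin2 they were Podxl, Limch1, Pxk, Iglon5 and Parvb (r 0.78 to 0.83, and 0.51 to 0.74 without WT_RL mice 2 and 3). For Lef1 they were the potassium channel genes Kcnj10 and Kcng4, then Pygm, Nacc2 and Esyt1 (r 0.83 to 0.89, and 0.58 to 0.77 without the same 2 mice). For Tcf7l2 they were Plcb4, Itpkb, Tpp1, Inadl and Rassf4 (r 0.85 to 0.87), and without WT_RL mice 2 and 3 the r of these genes lay between 0.44 and 0.75. These correlations describe libraries that share groups, depth and GC slopes, and carry no test.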

How the data were processed

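RNA of 18 hippocampi was sequenced from polyadenylated RNA as 100-bp paired reads. The authors aligned reads to mm10 with STAR 2.5.1, counted them on genes, normalized them with the TMM method of edgeR 3.12.1 and deposited 1 log2 value per gene and library. Undoing the log of the deposited values and subtracting 1 left whole multiples of the value of 1 read, within 0.1 of a read, for 100% of values in every library, so their scale is log2(CPM + 1), although the study describes flooring CPM at 1. Whether counting used strand is not given in the sources used here. On the other strand, exons of Ctnnb1 overlap Ulk4, those of Axin2 Gm11670, those of Dvl1 Tas1r3 and those of Lef1 Gm43352, and Mir7090 lies within Ctnnb1. If strand was not used, a member's reads cannot be told apart from theirs.

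Groups came from the labels, which do not say whether mice shared litters. The p-values treat the mice as independent, which could not be checked. All 18 libraries entered 1 linear model of limma 3.58.1 (R 4.3.3) with a mean for each of the 6 groups, a variance trend in eBayes and 12 residual degrees of freedom. The 13 comparisons were two-sided, with Benjamini-Hochberg adjustment over 15329 genes. Simulated data with known changes were used to test it. At the recovered depths, 29248557 to 37915576 reads, 1 read is 0.0274 to 0.0333 CPM. Python 3.11.15, numpy 2.4.6, pandas 2.3.3, matplotlib 3.10.9 and statmod 1.5.0 were also used. Positions, GC content and lengths are from GENCODE M21 on GRCm38, with 14769 symbols found directly and 450 under a later symbol.

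The members, the pathway and marker lists and the tests were chosen with earlier results of these data known. Named genes are the 9 members, Ccny, Cdk14 and, per list and comparison, at most the 3 called genes with the largest change, and for Lrp6, Axin2, Lef1 and Tcf7l2 the 5 genes most correlated with each. Marker genes of other cells were picked for naming after their values were seen. As an alternative, a curve of GC content (natural spline) was fitted over genes to each library's deviations from the gene means and removed. The curve was fitted alone or with a curve of log2 transcript length. The straight-line slopes given above were not used for this. Fold changes on log2(CPM + 1) understate the change of genes at low CPM.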

Additional observations from a re-analysis of the deposited data

Results flagged for a closer look

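Dvl1 was higher in all 3 WT_OL mice than in all 3 WT_Basal mice and lower in all 3 KO_OL mice than in all 3 KO_Basal mice. The group differences of the genotypes thus had opposite signs. Trained and untrained mice are different animals, so no mouse was followed through training. In WT mice the separation was narrow, with WT_OL mouse 3 at 88.55 CPM and WT_Basal mouse 2 at 88.52 CPM, and WT_OL mouse 2, the library with the highest GC slope, was the highest at 123.5 CPM. KO minus WT for the change was -0.41 on the log2 scale (limma adjusted p = 0.388), which did not pass the test. Over 12 alternatives it lay between -0.48 and -0.38, and it was called with arrayWeights (-0.39, adjusted p = 0.0151). Over the 18 fits without 1 library it lay between -0.51 and -0.28, and it was called without WT_OL mouse 3 (adjusted p = 0.0377).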

How the results depend on the processing

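The number of the 9 members called (limma, adjusted p under 0.05) stayed within 1.5 times of the reported one in 137 of 156 combinations of 13 comparisons with 12 alternatives, and in 215 of 234 fits without 1 library. The exceptions follow. With the libraries of the comparison alone, 3 members were called in KO_OL against KO_Basal mice, 3 in KO_RL against KO_Basal and 0 in WT_RL against WT_Basal. With arrayWeights, which lowers the weight of variable libraries and was run gene by gene, 4 were called between KO_OL and WT_OL, 1 (Lef1) over the 3 states, 3 in WT_OL against WT_Basal, 3 in KO_OL against KO_Basal, 1 in WT_RL against WT_OL, 1 in WT_RL against WT_Basal, 4 in KO_RL against KO_Basal and 2 for the genotype difference in the change with original learning.

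Alternatives added after seeing the data were voom on the recovered reads, GC correction, GC and length correction, and leaving out the 3 libraries with Pou4f1 or Gbx2 above 1.5 CPM. Voom changed no member's call. With GC corrected, 2 members were called in KO_OL against KO_Basal (Lrp5 higher, Dvl1 lower) and 1 in WT_RL against WT_Basal (Lef1). With GC and length corrected, 1 was called in WT_RL against WT_Basal (Lef1), and the 1 called in each KO comparison with KO_Basal was Dvl1, lower, in place of Lrp5. Without the 3 libraries, which leaves 1 WT_RL mouse, 0 were called in WT_RL against WT_Basal and 2 in KO_RL against KO_Basal (Lrp5, Lrp6), and Tcf7l2 turned direction: 0.28 between KO_RL and WT_RL, -0.34 between WT_RL and WT_OL, -0.070 between WT_RL and WT_Basal, and 0.33 for the genotype difference in the change from original to reversal learning.

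In the 18 fits without 1 library, the number called ranged from 0 to 2 for KO_OL against WT_OL, 0 to 2 for KO_RL against WT_RL, 0 to 1 over the 3 states, 0 to 1 for WT_OL against WT_Basal, 0 to 2 for KO_OL against KO_Basal, 0 to 1 for WT_RL against WT_OL, 0 to 4 for WT_RL against WT_Basal, 1 to 2 for KO_RL against KO_Basal and 0 to 2 for the change with original learning. The difference of Lrp6 between KO_RL and WT_RL ranged from -0.038 to 0.40. The cause of these changes was not tested.

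With the replicate number as a block, 1 member was called in WT_OL against WT_Basal (Dvl1), 4 in WT_RL against WT_Basal and 2 in KO_RL against KO_Basal, and the block moved no other count by over 1.5 times. Nothing in the labels ties the numbers to a litter or day, and deviations of same-numbered mice correlated at -0.60 to 0.51 (median -0.03), against -0.52 to 0.52 for other pairs, so the numbers were not taken as pairs.

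The edgeR and DESeq2 tests listed as alternatives were not run, since the deposited unit is log2. With 3 mice a group, precision differed by gene: the 95% interval of the genotype difference without training ran from -0.55 to 0.24 for Lrp6 and from -0.14 to 0.17 for Ctnnb1.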
